A study of Mus musculus with 6 samples.

Results

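The genes of the constitutive proteasome were the 45 protein-coding genes of the deposited count table whose symbol is Psma, Psmb, Psmc, Psmd, Psme, Psmf or Psmg followed by a number, without the interferon-inducible catalytic subunits Psmb8, Psmb9 and Psmb10. They are 45 of 54532 rows and were sorted by role into a core of 16 genes, a cap of 17 genes and 12 regulators. All 6 libraries were RNA sequencing libraries of cardiosphere-derived cells (CDCs) from heart ventricle of C57BL/6 mice, a line immortalized with human telomerase reverse transcriptase and taken at passage 30. The 3 control libraries came from iCDCs with no treatment named in their sample descriptions, and the 3 induced libraries from iCDCs that had received 5-aza, an inhibitor of DNA methylation, at 10 µM for 3 days and had then stayed for 4 weeks in medium with 2% serum. The culture medium and its duration differ between the labels and the study's methods, and drug, serum and time in culture cannot be told apart. All libraries came from 1 immortalized line, the labels name separate samples but not separate cultures, and p-values therefore measure only the spread between these samples.

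The proteasome is the protease that degrades proteins marked with ubiquitin. Its core particle is a barrel of alpha and beta rings whose inner beta subunits cut peptide bonds, and the cap, or regulatory particle, binds ubiquitin chains, removes them, unfolds the protein with a ring of ATPases and feeds it into the barrel. Dedicated chaperones build the core and the base of the cap, and alternative activators can open the barrel without the cap. In heart muscle the proteasome removes damaged and surplus proteins, and cells that make too little of it raise its subunits together through the transcription factor Nfe2l1.

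Total counts were 19041133 to 19823369 per library. The markers of CDCs (Thy1, Eng, Ly6a and Tbx18) summed to 562.9 to 572.1 CPM (read counts scaled to library size) in control libraries and 615.1 to 640.9 CPM in induced libraries, but Thy1 and Eng rose while Ly6a (0.676-fold) and Tbx18 (0.796-fold) fell. Of the leukocyte list, Ptprc, Tyrobp, Itgam and Cd52 had 0 reads in every library, and the list's sum of 0.051 to 0.203 CPM in control and 3.09 to 3.51 CPM in induced libraries came mostly from Fcer1g in the latter. Endothelial markers summed to at most 2.31 CPM. The cardiomyocyte list summed to 12.8 to 16.1 CPM in control and 60.0 to 63.7 CPM in induced libraries, mostly from Tnnt2. The proliferation list summed to 888.7 to 913.5 CPM in control and 287.4 to 296.5 CPM in induced libraries, and all 8 of its genes fell. In bulk RNA, fewer cells of a type and less RNA per cell cannot be told apart.

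Most proteasome genes differed little between control and induced cells. Of the 45 genes, 43 passed the filter on low counts, and 14 of these were higher and 7 lower in induced cells by edgeR's quasi-likelihood test at a Benjamini-Hochberg adjusted p under 0.05, while 22 did not pass. That is 48.8% of the tested proteasome genes, against 64.8% of all 14246 genes tested, of which 32.6% were higher and 32.2% lower. The gap to all genes depended on 1 library, since without induced replicate 2 the share was 62.8% of the proteasome genes (27 of 43) against 64.4%. Among the 9691 genes in the expression range of the proteasome genes, 70.6% passed with all libraries. That share was not computed without induced replicate 2. The 3 control and 3 induced libraries did not overlap for 21 proteasome genes, or 48.8%, against 68.6% of all genes. With a change of at least 1.25-fold, 3 proteasome genes passed (Psmd8 and Psmc4 higher, Psmg3 lower), which is 6.98% of them against 48.3% of all genes. At 1.5-fold or more there was 1, or 2.33% against 30.9%, and at 2-fold or more there was 0, against 17.1%. The median absolute log2 fold change was 0.14 over the proteasome genes and 0.36 over all genes tested, and it was 0.30 over the 9691 genes in the same range of expression (7.43 to 396.5 CPM). The proteasome genes were also measured more precisely than most, with a median standard error (SE) of 0.056 on the log2 scale against 0.084 for all genes.

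**Figure D1:**
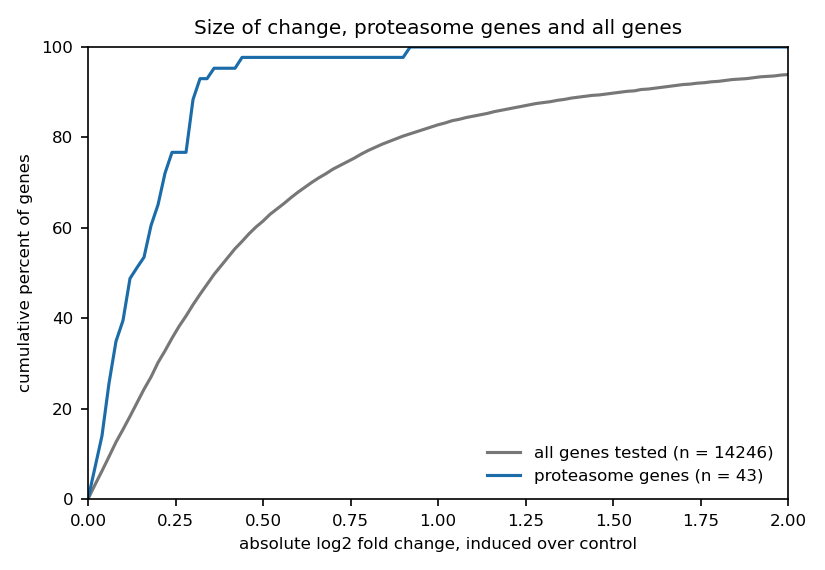
Cumulative percent of genes (vertical axis) at or under each absolute log2 fold change between induced and control cells (horizontal axis, log2 scale), for the 43 tested proteasome genes (blue) and all 14246 genes tested (grey). At an absolute log2 fold change of 0.50 the blue line stands at 97.7% and the grey line at 61.5%.

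The signed median was also close to 0, at 0.05 for the proteasome genes and -0.01 for all genes. It was 0.10 without induced replicate 2, 0.02 without induced replicate 3, 0.03 without induced replicate 1 and 0.02 with library totals alone. By part it was 0.07 in the core, 0.06 in the cap and -0.18 among the regulators. The core had 4 genes higher and 0 lower (28.6% called) and the cap 7 and 1 (47.1%). The regulators had 3 higher and 6 lower (75.0%), against 64.8% called of all genes. Without induced replicate 2 these counts were 10 and 0 in the core, 8 and 1 in the cap and 4 and 4 among the regulators. In that setting 64.4% of all genes were called. The summed level of the core and cap genes without Psmd8 was 3553.7 CPM ± 23.6 (SD, n = 3) in control and 3693.6 CPM ± 170.0 (SD, n = 3) in induced libraries, a ratio of 1.04. These sums are of counts and are dominated by the more abundant and longer transcripts.

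**Figure D2:**
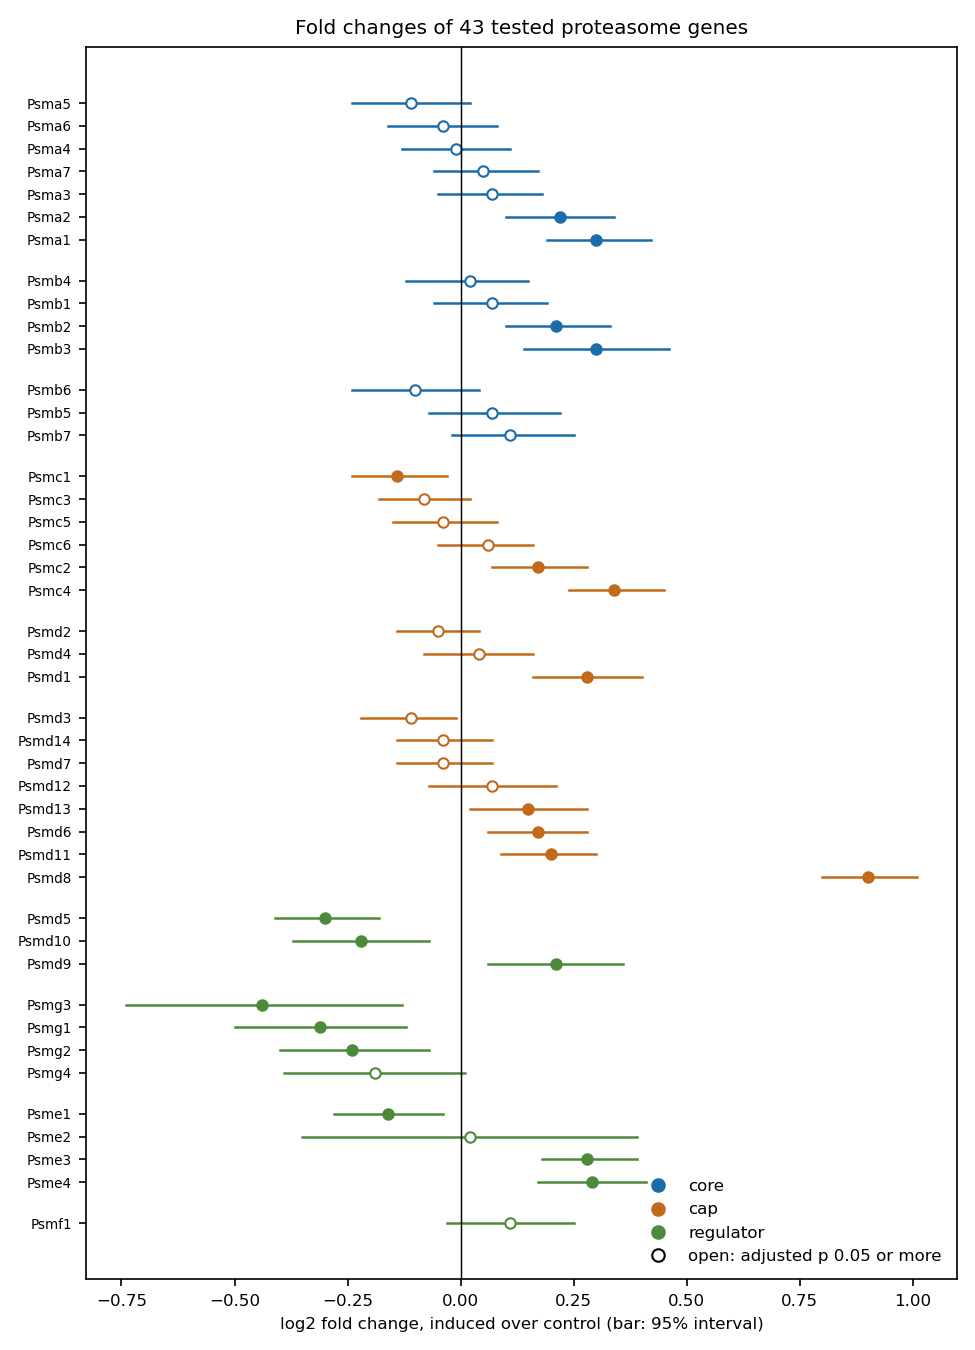
Log2 fold change of each of the 43 tested proteasome genes, induced over control (horizontal axis), with its 95% confidence interval from edgeR (bar), in the order alpha ring, structural beta, catalytic beta, ATPases, scaffold and receptor subunits, lid, base assembly chaperones, core assembly chaperones, activators and inhibitor. Filled points passed an adjusted p of 0.05, and Psmd8 at 0.90 lies apart from all others, which span -0.44 to 0.34.

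The 250 bases upstream of the annotated start are shown for 4 genes, taken from the RefSeq promoter table of build GRCm38.p6 and written 5′ to 3′ on the strand of the gene. Psmd8 is shown because it changed most. Psmb5 and Psmb6, which encode catalytic subunits, are shown because their windows hold the antioxidant response element that Nfe2l1 and Nfe2l2 recognise (TGACNNNGC, in capitals), and Psmg1 is shown as an assembly chaperone that fell, with an ETS site (CCGGAAG, in capitals). The windows lie at chr7:29180674-29180923 (minus strand, Psmd8), chr14:54617996-54618245 (minus strand, Psmb5), chr11:70525107-70525356 (plus strand, Psmb6) and chr16:95990961-95991210 (minus strand, Psmg1).
Psmd8: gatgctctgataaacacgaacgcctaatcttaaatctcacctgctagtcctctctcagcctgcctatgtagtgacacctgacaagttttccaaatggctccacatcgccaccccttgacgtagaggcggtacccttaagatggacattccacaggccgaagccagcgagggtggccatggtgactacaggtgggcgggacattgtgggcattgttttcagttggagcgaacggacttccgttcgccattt
Psmb5: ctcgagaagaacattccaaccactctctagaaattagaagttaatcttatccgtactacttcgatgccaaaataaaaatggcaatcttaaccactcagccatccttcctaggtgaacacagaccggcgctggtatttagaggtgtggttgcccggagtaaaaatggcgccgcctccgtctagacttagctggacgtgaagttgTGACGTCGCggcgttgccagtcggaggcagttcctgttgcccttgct
Psmb6: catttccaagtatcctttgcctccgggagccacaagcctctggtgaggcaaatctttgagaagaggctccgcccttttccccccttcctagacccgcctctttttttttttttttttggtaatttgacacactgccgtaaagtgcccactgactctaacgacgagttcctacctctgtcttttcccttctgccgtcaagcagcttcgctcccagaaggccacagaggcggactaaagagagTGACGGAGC
Psmg1: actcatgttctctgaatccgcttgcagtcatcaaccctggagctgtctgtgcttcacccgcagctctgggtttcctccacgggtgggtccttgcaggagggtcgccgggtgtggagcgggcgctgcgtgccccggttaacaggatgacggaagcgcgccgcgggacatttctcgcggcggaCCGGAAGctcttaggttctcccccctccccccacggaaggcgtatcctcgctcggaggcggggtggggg
The element begins 47 bases before the start in Psmb5 and 9 bases before it in Psmb6, and the ETS site begins 69 bases before the start in Psmg1.

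Windows of 300 bases, from 250 before the start to 50 after it, were found for 37 of the 45 genes (40 windows, as some genes have more than 1), and both strands were searched for 4 motifs. The proteasome windows were rich in CpG, with a median observed over expected ratio of 0.77 against 0.38 for all 32851 windows, so each share is also set against the windows with a ratio of at least 0.6. The antioxidant response element was in 15% of the proteasome windows (of Psmb5, Psmb6, Psmc6, Psmd12, Psmd9 and Psme4), against 12.4% of all windows and 14.7% of the CpG-rich ones. The ETS site was in 37.5% of the proteasome windows, against 8.86% and 18.7%. The core of the interferon-stimulated response element (GAAANNGAA) was in 17.5%, against 8.56% and 5.83%, and the CCAAT box (CCAAT) in 32.5%, against 37.4% and 35.7%. None of the 4 was in the window of Psmd8. The ETS site was in windows of genes that were higher (Psmc2, Psmd6, Psmd11, Psmd13, Psme3 and Psme4) and lower (Psmc1, Psmg1 and Psmg3). It was also in windows of Psma6, Psmc6, Psmd2, Psmd4 and Psmd12, which did not pass the test.

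The alpha ring forms the ends of the barrel and gates the entrance. Of its 7 tested genes, 2 were higher and 0 lower, or 28.6% called against 64.8% of all genes. The median log2 fold change was 0.05. Psma1 had 78.6, 78.9 and 78.6 CPM in the control libraries and 93.2, 94.1 and 104.4 CPM in the induced libraries. All induced values lay above the control values, with a log2 fold change of 0.30 (SE 0.056, adjusted p = 1.08e-04 by edgeR). Psma2 rose by 0.22 on the log2 scale. At the other end of the ring, Psma5 had 72.9, 66.6 and 70.4 CPM in control and 65.4, 59.1 and 69.9 CPM in induced libraries. Its groups overlapped, at a log2 fold change of -0.11 (95% interval -0.24 to 0.02, adjusted p = 0.131 by edgeR), and it passed without induced replicate 3 (adjusted p = 0.045) or with library totals alone (0.0422). The testis form of the ring subunit Psma7, Psma8, had 0 reads in the control libraries and 1, 1 and 0 reads in the induced libraries, under the limit of 3 counts, or 0.15 to 0.159 CPM.

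The structural beta subunits close the inner rings without cutting. Of these 4 genes 2 were higher and 0 lower, while 64.8% of all genes tested were called, higher or lower. The median log2 fold change of the 4 genes was 0.14. Psmb3 had 103.4, 113.0 and 103.7 CPM in control and 142.7, 110.1 and 141.0 CPM in induced libraries. It passed the test (log2 fold change 0.30, SE 0.077, adjusted p = 0.00247 by edgeR) although induced replicate 2 lay among the control values, and the value was 0.42 without that library. Psmb2 rose by 0.21 on the log2 scale. Psmb4 had 186.2, 201.3 and 196.5 CPM in control and 209.4, 172.5 and 208.3 CPM in induced libraries. Its log2 fold change was 0.02 (95% interval -0.12 to 0.15), with induced replicate 2 below every control library and the others above.

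The catalytic beta subunits hold the 3 active sites of the barrel, and none of them passed the test. Psmb5, the chymotrypsin-like site, had 93.0, 92.2 and 92.3 CPM in control and 109.5, 86.5 and 96.2 CPM in induced libraries. Psmb6, the caspase-like site, had 111.2, 120.2 and 116.6 CPM in control and 115.6, 94.7 and 114.5 CPM in induced libraries. Psmb7, the trypsin-like site, had 76.6, 76.6 and 72.4 CPM in control and 84.8, 72.9 and 86.4 CPM in induced libraries. In all 3 genes the groups overlapped and induced replicate 2 was the lowest induced library. The log2 fold changes were 0.07 for Psmb5 (95% interval -0.07 to 0.22, adjusted p = 0.355 by edgeR), -0.10 for Psmb6 (-0.24 to 0.04, adjusted p = 0.203) and 0.11 for Psmb7 (-0.02 to 0.25, adjusted p = 0.128). Of the exon bases of Psmb7, 11.84% overlap Nek6 on the opposite strand, so its reads cannot be assigned with certainty. The thymus form of Psmb5, Psmb11, had 0 reads in every library, which allows up to 0.15 to 0.159 CPM for counting error alone.

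Induced replicate 2 decided much of the result in the core. It was the lowest induced library in 12 of the 14 tested core genes, among them all 7 beta subunits, and in 30 of the 43 proteasome genes, or 69.8%, against 37.0% of all genes. Its median log2 distance from the other induced libraries was -0.18 over the core genes and 0.0 over all genes. Over all genes that distance moved with gene length. It was -0.17 under 1000 bases, -0.12 for 1000 to 2000, -0.04 for 2000 to 4000 and 0.05 for 4000 bases or more. The proteasome genes stood lower in each range, at -0.19 (2 genes), -0.15 (11), -0.11 (20) and -0.05 (10). The part of gene length in the result was not tested. Without this library 10 core genes were higher and 0 lower, against 4 and 0 with it, and the core median was 0.13. Psmb5 and Psmb7 then passed, at log2 fold changes of 0.16 (adjusted p = 0.00677 by edgeR) and 0.19 (adjusted p = 0.00114), and Psmb6 stood at -0.01 (adjusted p = 0.914). Psma3, Psma7, Psmb1 and Psmb4 also passed, at 0.11 to 0.15. The sizes stayed small, with a median absolute log2 fold change of 0.15 over the proteasome genes and 0.37 over all genes, while the shares called were close, at 62.8% and 64.4%.

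Each catalytic subunit has an interferon-inducible partner that can take its place in newly built cores. The deposited FPKM values divide the reads by gene length and library depth, so a ratio between genes depends on the lengths used. These lengths are 899 bases for Psmb5, 1872 for Psmb6 and 3421 for Psmb7. The ratios therefore serve to compare the groups and do not give the share of each partner. Psmb9 stood at 1.10 ± 0.0557 FPKM per 100 FPKM of Psmb6 in control and 3.36 ± 0.252 in induced libraries (SD, n = 3 each). Psmb10 stood at 117.0 ± 8.17 per 100 of Psmb7 in control and 82.6 ± 4.62 in induced libraries. In CPM the control mean was 43.7 for Psmb10 and 75.2 for Psmb7, so the order of these genes depends on the unit. Psmb8 stood at 3.55 ± 0.629 per 100 of Psmb5 in control and 3.47 ± 0.394 in induced libraries. The groups thus lay apart, in opposite directions, for the Psmb9 and Psmb10 ratios and overlapped for Psmb8. In CPM, Psmb9 had 2.53, 2.50 and 2.45 in control and 7.87, 6.52 and 6.87 in induced libraries, with a log2 fold change of 1.50 (SE 0.160, adjusted p = 1.64e-07 by edgeR). Psmb10 had 41.5, 44.6 and 45.1 CPM in control and 33.8, 31.9 and 34.4 CPM in induced libraries, with a log2 fold change of -0.39 (adjusted p = 2.34e-05 by edgeR). Psmb8 had 9.12, 8.87 and 12.0 CPM in control and 12.1, 7.94 and 11.0 CPM in induced libraries (log2 fold change 0.05, 95% interval -0.27 to 0.36). The interferon response list summed to 158.4 to 164.9 CPM in control and 692.5 to 933.9 CPM in induced libraries, with 9 of its 10 genes higher and Irf1 lower. Of the exon bases of Psmb9, 5.79% overlap Tap1 on the opposite strand. Those of Psmb7 overlap Nek6 by 11.84% and those of Psmb8 another gene by 14.73%. The strand setting of the counting is not given in the sources used here. Tap1 had 387, 381 and 353 reads in control and 807, 845 and 871 reads in induced libraries. Nek6 had 3451, 3034 and 3171 reads in control and 1528, 1634 and 1503 reads in induced libraries. The part of these overlaps in the values of Psmb9 and Psmb7 was not tested.

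The ATPases of the base form the ring that unfolds substrates, and of these 6 genes 2 were higher and 1 lower. Psmc4 had 95.3, 93.8 and 97.1 CPM in control and 122.8, 117.2 and 122.5 CPM in induced libraries. The groups lay well apart, with a log2 fold change of 0.34 (SE 0.050, adjusted p = 8.94e-06 by edgeR). Psmc2 rose by 0.17 on the log2 scale. Psmc1 had 127.9, 120.6 and 123.3 CPM in control and 113.8, 110.4 and 114.3 CPM in induced libraries. Its induced values all lay below the control values (log2 fold change -0.14, SE 0.050, adjusted p = 0.0232 by edgeR), but the call was lost without control replicate 1 (adjusted p = 0.114), control replicate 3 (0.0713) or induced replicate 3 (0.0509). The calls among the 6 ATPases, which stand in equal numbers in the ring, went in both directions. Of all genes, 32.6% were higher and 32.2% lower.

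The scaffold and receptor subunits of the base hold the ubiquitin receptors and the substrate. Psmd1 had 121.5, 110.2 and 117.4 CPM in control and 133.1, 148.1 and 142.6 CPM in induced libraries. It rose by 0.28 on the log2 scale (SE 0.055, adjusted p = 2.30e-04 by edgeR), with no overlap between groups. Psmd2 had 370.8, 364.0 and 365.6 CPM in control and 359.0, 347.1 and 357.5 CPM in induced libraries. Although its groups did not overlap, the difference was small (log2 fold change -0.05, 95% interval -0.14 to 0.04, adjusted p = 0.329 by edgeR). Psmd4, a ubiquitin receptor, stood at 0.04 (adjusted p = 0.542 by edgeR), and passed without induced replicate 2 at 0.10 (adjusted p = 0.0347).

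The lid removes ubiquitin chains, and it held the gene that moved most. Psmd8 (Rpn12, the last subunit to join the lid) had 269.2, 278.5 and 280.7 CPM in control and 537.2, 481.2 and 532.4 CPM in induced libraries. Every induced library lay far above every control library, at 1.87-fold (log2 fold change 0.90, 95% interval 0.80 to 1.01, adjusted p = 1.43e-11 by edgeR). Psmd8 lies at chr7:29174188-29180701 on the minus strand, and its exons overlapped those of no other gene. In FPKM, it stood at 89.5 ± 2.01 in control and 168.8 ± 10.4 in induced libraries (SD, n = 3 each). That placed it under Psmd2, Psmb4 and Psmb5 in control cells and above every other proteasome gene in induced cells.

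The other lid genes did not follow Psmd8. Of the 8 lid genes 4 were higher and 0 lower, with a median log2 fold change of 0.11. Psmd11 rose by 0.20 and Psmd6 by 0.17 on the log2 scale, and Psmd13 stood at 0.15 (adjusted p = 0.0369 by edgeR), a call that was lost when any 1 library other than induced replicate 2 was left out. Psmd14, the deubiquitinase of the lid, stood at -0.04 (95% interval -0.14 to 0.07, adjusted p = 0.565). The lowest was Psmd3, with 183.9, 182.0 and 193.0 CPM in control and 179.4, 165.7 and 171.4 CPM in induced libraries. Its groups did not overlap, but it did not pass (log2 fold change -0.11, adjusted p = 0.0521 by edgeR), except without induced replicate 1 (adjusted p = 0.0252) or with library totals alone (0.0103). Psmd12 passed only without induced replicate 1 (adjusted p = 0.0435). Without Psmd8, the 30 other tested genes of core and cap spanned -0.14 to 0.34 and 36.7% of them passed the test, against 64.8% of all genes.

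**Figure D3:**
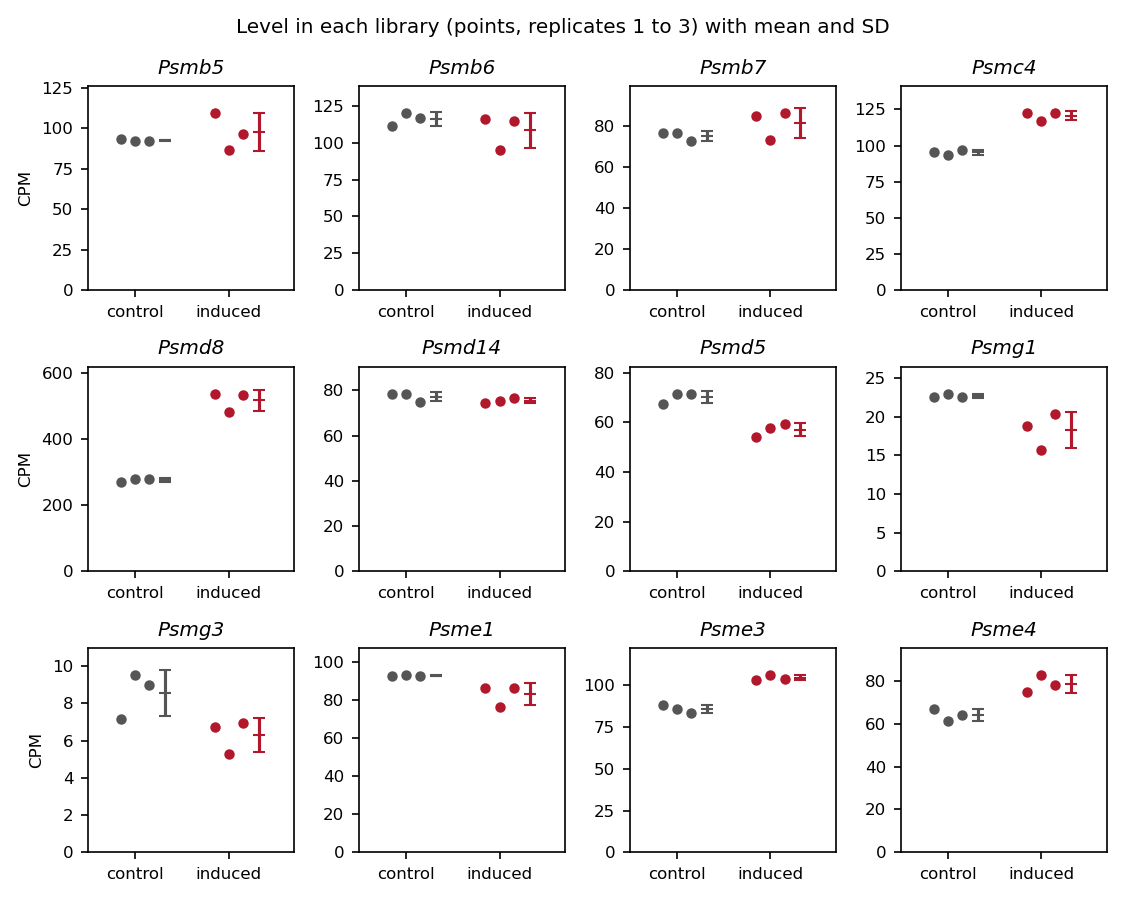
Level of 12 proteasome genes in each library in CPM (vertical axis from 0, 1 panel per gene), with the 3 control libraries in grey, the 3 induced libraries in red and the mean and SD beside them. Psmd8 separates the groups most, Psmc4, Psme3 and Psme4 lie higher and Psmd5, Psmg1 and Psmg3 lower in induced libraries, and the catalytic genes Psmb5, Psmb6 and Psmb7 overlap.

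The chaperones that build the core, Psmg1 to Psmg4, pair alpha subunits before the rings close. All 4 had induced libraries below the control libraries, against groups that lay apart in either direction for 68.6% of all genes. The test was passed by 3 of them, or 75.0%, against 64.8% of all genes. The median log2 fold change was -0.27. Their summed level was 68.3 CPM ± 1.89 in control and 56.4 CPM ± 3.94 in induced libraries (SD, n = 3 each). Psmg3 had 7.15, 9.53 and 8.97 CPM in control and 6.75, 5.26 and 6.92 CPM in induced libraries. It fell by 0.44 on the log2 scale (SE 0.145, adjusted p = 0.0134 by edgeR), a call lost without control replicate 2 (adjusted p = 0.0743) or induced replicate 2 (0.062). Psmg1, named after its values were seen, had 22.6, 23.0 and 22.6 CPM in control and 18.8, 15.7 and 20.4 CPM in induced libraries. It fell by 0.31 on the log2 scale (SE 0.091, adjusted p = 0.00601 by edgeR) and by 0.21 without induced replicate 2 (adjusted p = 0.0311). Psmg2 fell by 0.24 on the log2 scale, and its call was lost without induced replicate 3. Psmg4 had 15.4, 15.6 and 18.0 CPM in control and 14.3, 13.5 and 15 CPM in induced libraries, at a log2 fold change of -0.19 (95% interval -0.39 to 0.01, adjusted p = 0.0818). These are the least abundant of the tested proteasome genes in CPM, and the summed level of the proliferation list moved in the same direction. Its part in the result was not tested.

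The chaperones of the base split. Psmd5, which holds ATPases until the base is complete, had 67.3, 71.5 and 71.3 CPM in control and 54.0, 57.7 and 59.2 CPM in induced libraries. It fell by 0.30 on the log2 scale (SE 0.055, adjusted p = 1.17e-04 by edgeR) with no overlap. Psmd10, also known as gankyrin, fell by 0.22, a call lost without control replicate 1. Psmd9 had 33.3, 30.6 and 34.4 CPM in control and 40.0, 34.3 and 39.5 CPM in induced libraries. Its groups overlapped by 1 library and it passed at a log2 fold change of 0.21 (adjusted p = 0.0164 by edgeR), a call lost without control replicate 2 (adjusted p = 0.103), induced replicate 1 (0.0712) or induced replicate 3 (0.0548). Of the exon bases of Psmd9, 25.51% overlap an antisense gene, so its reads cannot be assigned with certainty.

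The alternative activators also split. Psme3 (PA28 gamma) and Psme4 (PA200) act mainly in the nucleus, while Psme1 and Psme2 (PA28 alpha and beta) form the ring that interferon gamma induces. Psme3 had 88.0, 85.6 and 83.4 CPM in control and 102.9, 106.1 and 103.8 CPM in induced libraries. Psme4 had 66.9, 61.4 and 63.9 CPM in control and 74.6, 82.8 and 78.2 CPM in induced libraries. Both rose without overlap, by 0.28 (SE 0.051, adjusted p = 8.34e-05 by edgeR) and 0.29 (SE 0.057, adjusted p = 1.82e-04) on the log2 scale. Psme1 had 92.6, 93.2 and 92.4 CPM in control and 86.4, 76.3 and 86.0 CPM in induced libraries. It fell by 0.16 on the log2 scale (SE 0.057, adjusted p = 0.0193 by edgeR). The interferon response list rose in sum, with 9 of its 10 genes higher, while Irf1 of that list fell by 0.51 on the log2 scale. The call of Psme1 was lost without control replicate 1, 2 or 3 (adjusted p = 0.0547, 0.0604 and 0.0519) or induced replicate 2 (log2 fold change -0.10, adjusted p = 0.0585).

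Psme2 could be read only together with Psme2b, a copy that shares 99.37% of 794 aligned bases with it. Psme2 had 916, 606 and 481 reads in control and 519, 593 and 836 reads in induced libraries. Psme2b had 497, 784 and 895 reads in control and 878, 568 and 710 reads in induced libraries. The libraries in which one was high were those in which the other was low within the control group, and the share of the summed reads that went to Psme2 ran from 35.0% to 64.8%. The sums were 71.6, 70.8 and 68.9 CPM in control and 74.2, 61.1 and 81.0 CPM in induced libraries. Summing the reads brought the SE of the log2 fold change from 0.175 for Psme2 alone to 0.076, at values of 0.02 and 0.03, and neither passed (adjusted p = 0.934 and 0.717 by edgeR). Psma3 likewise has copies that took 32.5% of the summed reads, and its log2 fold change was 0.07 with and without them.

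**Figure D4:**
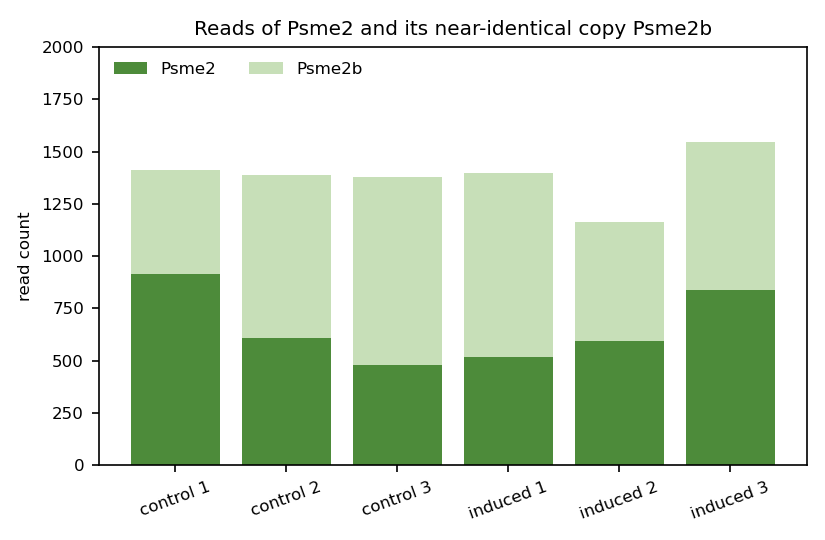
Read counts of Psme2 (dark green) and its near-identical copy Psme2b (light green), stacked, in each of the 6 libraries (vertical axis, reads from 0). The stacked totals are alike in the 3 control libraries, from 1376 to 1413 reads, while the part of Psme2 ran from 481 to 916 reads.

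The inhibitor Psmf1 (PI31) binds the core. It had 33.7, 36.0 and 35.0 CPM in control and 40.2, 35.7 and 37.1 CPM in induced libraries, and the groups overlapped (log2 fold change 0.11, 95% interval -0.03 to 0.25, adjusted p = 0.151 by edgeR). It passed without induced replicate 2 (log2 fold change 0.15, adjusted p = 0.0348).

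Levels per gene length (FPKM) spread widely within the complex. In control cells, the tested core genes ran from 18.6 FPKM for Psma3, whose copies took part of the reads, and 21.8 FPKM for Psmb7 to 101.9 FPKM for Psmb5. The gene lengths behind these values are 3894 bases for Psma3, 3421 for Psmb7 and 899 for Psmb5, and in CPM the 3 genes lay closer together. The lid genes ran from 13.1 FPKM for Psmd11 to 89.5 FPKM for Psmd8. The core assembly chaperones ran from 2.93 FPKM for Psmg3 to 29.1 FPKM for Psmg4.

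Of the 31 tested genes of a list of the surrounding ubiquitin-proteasome pathway, 14 were higher and 5 lower. That is 61.3%, near the 64.8% of all genes, and the median log2 fold change was 0.14. Nfe2l1, the factor that raises proteasome genes when activity is short, had 411.4, 393.2 and 397.8 CPM in control and 722.9, 708.1 and 697.3 CPM in induced libraries. It rose by 0.82 on the log2 scale (SE 0.043, adjusted p = 6.40e-12 by edgeR), with a wide gap between groups. Its relative Nfe2l2, a regulator of the oxidative stress response, had 114.6, 113.0 and 112.4 CPM in control and 121.1, 133.6 and 125.8 CPM in induced libraries (log2 fold change 0.16, adjusted p = 0.0105 by edgeR). The transcript of Nfe2l1 does not give its activity, which depends on processing of the protein by Ddi2 and Ngly1. Ddi2, of whose exon bases 18.31% overlap another gene, rose by 0.25 on the log2 scale, and Ngly1 stood at 0.19 (adjusted p = 0.0508).

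Among the factors that deliver substrates, Zfand2a, an arsenite-inducible protein that binds the cap, had 25.5, 26.3 and 26.4 CPM in control and 54.6, 57.2 and 60.1 CPM in induced libraries. It rose by 1.14 on the log2 scale (SE 0.060, adjusted p = 8.80e-12 by edgeR). Ubqln4, a shuttle that carries ubiquitinated proteins, had 76.1, 77.5 and 73.6 CPM in control and 47.8, 46.0 and 46.0 CPM in induced libraries. It fell by 0.70 on the log2 scale (SE 0.053, adjusted p = 1.29e-09 by edgeR), while its relative Ubqln2 rose by 0.50. Usp14, a deubiquitinase bound to the cap, had 71.9, 66.9 and 67.9 CPM in control and 51.4, 54.0 and 51.0 CPM in induced libraries. It fell by 0.40 on the log2 scale (SE 0.054, adjusted p = 3.43e-06 by edgeR), but 25.99% of its exon bases overlap Thoc1 on the opposite strand, so its reads cannot be assigned with certainty. Fbxo7, which binds Psmf1, had 14.3, 14.9 and 14.3 CPM in control and 16.6, 15.7 and 20.2 CPM in induced libraries. It passed at 0.27 (adjusted p = 0.026 by edgeR), a call lost without control replicate 1 (adjusted p = 0.0622), control replicate 3 (0.0617) or induced replicate 3 (0.184).

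Subunits whose symbols do not follow the Psm pattern, the maturation factor Pomp and the ubiquitin genes gave a mixed picture. The ubiquitin receptor Adrm1 had 94.7, 96.5 and 97.9 CPM in control and 121.3, 108.0 and 120.1 CPM in induced libraries, and it rose by 0.27 on the log2 scale (adjusted p = 2.84e-04 by edgeR). Sem1, the smallest lid subunit, had 102.3, 108.4 and 101.9 CPM in control and 97.0, 79.5 and 102.2 CPM in induced libraries (log2 fold change -0.17, adjusted p = 0.0543 by edgeR). It passed without induced replicate 3 (adjusted p = 0.0114), with library totals alone (0.0172), with no filter (0.0182) and with the replicate number as a block (0.045). Without induced replicate 2 it stood at -0.06. Pomp, which matures the core, had 74.5, 82.4 and 81.3 CPM in control and 86.0, 79.4 and 92.3 CPM in induced libraries (log2 fold change 0.11, adjusted p = 0.116 by edgeR), and passed without induced replicate 2 (adjusted p = 0.00471). Ubb, a gene for chains of ubiquitin, had 631.8, 724.2 and 719.9 CPM in control and 809.5, 652.4 and 827.1 CPM in induced libraries. Its groups overlapped (log2 fold change 0.14, adjusted p = 0.0948 by edgeR), and it passed without induced replicate 2 at 0.25 (adjusted p = 2.01e-05). Rps27a, which encodes ubiquitin fused to a ribosomal protein, had 355.9, 253.9 and 243.0 CPM in control and 329.0, 137.4 and 194.0 CPM in induced libraries. Its libraries scattered within both groups, and its log2 fold change was -0.37 (95% interval -0.79 to 0.05, adjusted p = 0.114 by edgeR). It ran from -0.12 without induced replicate 2 (adjusted p = 0.449) and -0.17 without control replicate 1 (0.504) to -0.78 without induced replicate 1 (2.79e-04). Rps27a also passed with the replicate number as a block (log2 fold change -0.44, adjusted p = 2.63e-04 by edgeR) and with no filter (-0.36, adjusted p = 8.18e-12).

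**Figure D5:**
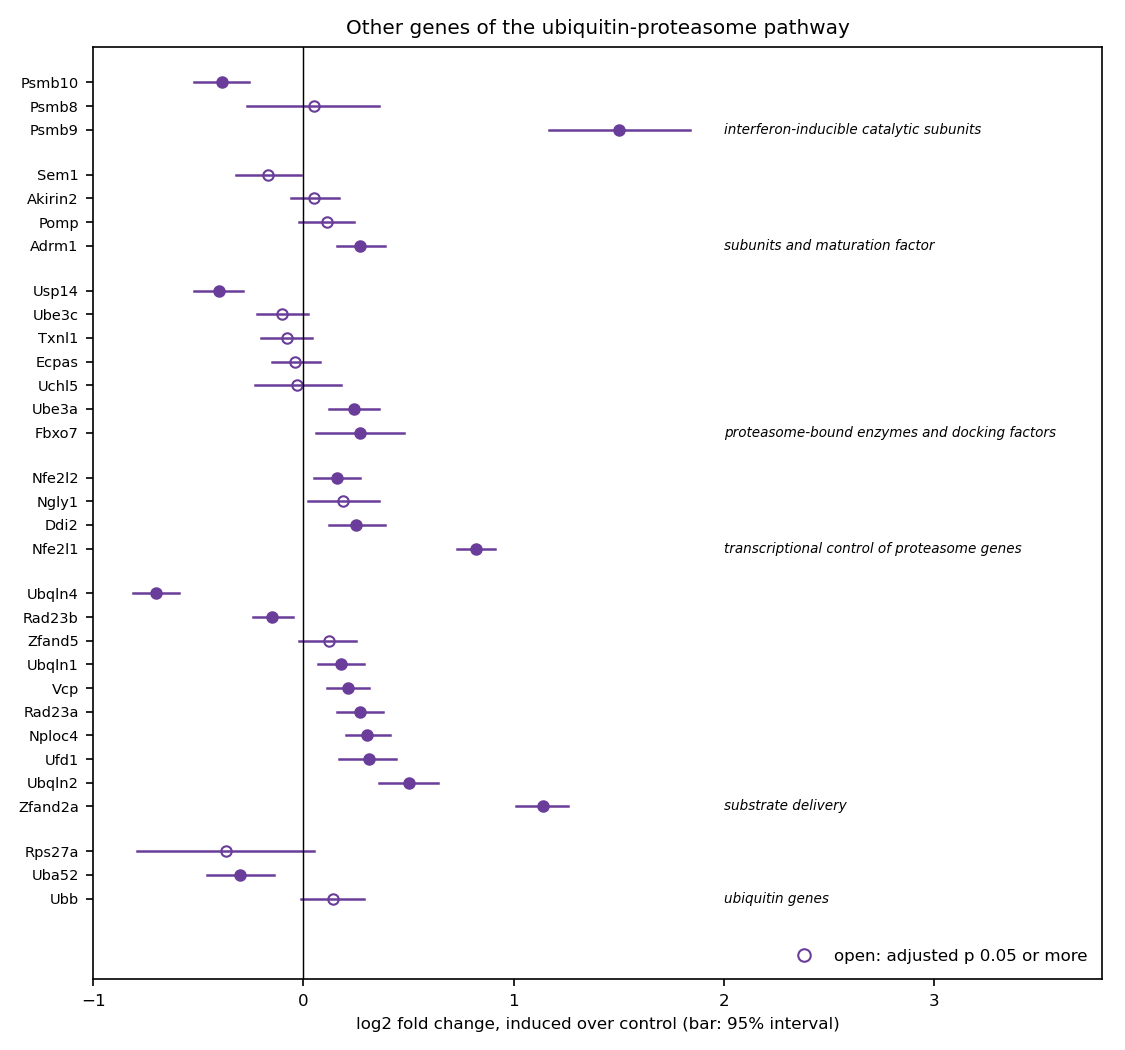
Log2 fold change, induced over control (horizontal axis), of 31 tested genes of the pathway list by function, with 95% confidence intervals from edgeR (bars). Filled points passed an adjusted p of 0.05. Psmb9 at 1.50, Zfand2a at 1.14 and Nfe2l1 at 0.82 are the highest and Ubqln4 at -0.70 is the lowest.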

How the data were processed

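Total RNA of 3 control and 3 induced samples was sequenced from NEBNext Ultra libraries. The authors deposited raw read counts per gene and FPKM values in 1 table. The submitters' processing notes name HISAT2 2.0.5, featureCounts 1.5.0-p3, DESeq2 1.16.1 and build mm10, and the strand setting is not given in the sources used here. Reads of overlapping genes or near-identical copies may be split or lost. The p-values, log2 fold changes and Gene Ontology tables deposited from the authors' own comparisons were not used.

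The deposited counts were modelled with edgeR 4.0.16 in R 4.3.3. The filterByExpr function (minimum count 10, minimum total 15) left 14246 genes with 99.9% of reads, libraries were scaled by TMM (trimmed mean of M values), and groups were compared by the two-sided quasi-likelihood test with Benjamini-Hochberg adjustment over all genes tested at 0.05. SE are the absolute log2 fold change over the root of the F statistic. A count of 0 was read as at most 3 counts, for counting error only. Libraries of the same group differed beyond sampling noise in each pair (chi-square per degree of freedom 2.56 to 8.91). Near-identical copies (at least 95% identity over 500 bases of GENCODE M21 transcripts) were summed as an alternative chosen after seeing the data. Gene coordinates are those of the deposited table. The tests were checked on simulated counts.

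Library values are given for the catalytic subunits, activators, inhibitor and the highest and lowest gene of each class, and by a like rule for the pathway list. The genes, lists and rule were chosen with earlier results of these data known. The other settings tried were each library left out in turn, an adjusted p under 0.01, the replicate number as a block, limma 3.58.1 on FPKM with a pseudocount of 1 or 0.1 on the log2 scale, stricter or no filtering, library totals alone, median-ratio size factors, and DESeq2 1.42.0. Of the pathway list, Paaf1 was not analysed here and 1 other gene is not reported here.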

Additional observations from a re-analysis of the deposited data

How the results depend on the processing

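The count of proteasome genes higher in induced cells, 14, lay between 12 and 22 when each library was left out in turn, with 22 without induced replicate 2, and was 12 to 14 under the other alternatives. The count lower, 7, lay between 4 and 8 when each library was left out, with 4 without control replicate 1, and was 11 with library totals alone, which added Psma5, Psmc3, Psmd3 and Psmg4, and 2 at an adjusted p under 0.01. With library totals alone 54.2% of the calls were higher against 66.7%, and the median of all genes was -0.04. Of the 21 calls, 14 held under all 16 alternatives (12 higher, and lower Psmd5 and Psmg1), and 9 genes passed under none. The calls of Psmd13, Psmd9, Psmc1, Psme1, Psmg3, Psmg2 and Psmd10 were lost under at least 1 alternative. Of 576 values of the 36 genes that the naming rule picked, under the alternatives, 530 kept their side of the threshold, 27 lost it, 19 gained it and 0 reversed a call. With the replicate block, 14 genes were higher and 7 lower, and of the pathway list Sem1 (adjusted p = 0.045) and Rps27a (log2 fold change -0.44, adjusted p = 2.63e-04) also passed. Deviations of same-numbered libraries correlated at -0.047, -0.038 and 0.041, so no common shift by number was seen over all genes. These correlations cannot show whether same-numbered samples were prepared together. With no filter, the share called was 46.5% of the proteasome genes against 38% of 25705 genes. Precision followed the level only in part. The SE was 0.145 for Psmg3, the tested proteasome gene with the lowest level, against a median of 0.056. It was highest, at 0.175, for Psme2, whose reads were divided with those of Psme2b.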
